A study of Mus musculus with 9 samples.

Results

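A family of 10 inhibitory and costimulatory receptors of T cells was followed in murine Tc17 cells, which are CD8+ T cells primed to produce IL-17. They were Havcr2 (encoding TIM-3), Lag3, Pdcd1 (PD-1), Ctla4, Tigit, Cd160, Btla, Cd5, Cd28 and Icos, taken by gene symbol from a table of 41388 genes. They were chosen by their place in this receptor family with results of these libraries already known, and Havcr2 in particular was selected on its higher normalized count with DMF. The values of the members, and the counts of members past the threshold used for all genes, are therefore a description, and no p-value is printed for a member. All 10 passed the filter on low values, a mean of 10 normalized counts over the libraries, and were among the 11599 genes tested, but Havcr2 reached that level only through its counts with DMF.

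Naive CD62L+CD44-CD8+ T cells of C57BL/6 mice aged 8 to 12 weeks were stimulated for 2 days with plate-bound anti-CD3 and soluble anti-CD28, in the presence of 0.5 ng/ml TGF-β, 30 ng/ml IL-6, 50 U/ml IL-2 and an antibody against IFN-γ. These conditions were common to all groups. The solvent DMSO, at 0.2%, was likewise part of every group. It was used by itself in Ctrl, together with 20 µM dimethyl fumarate (DMF), a fumaric acid ester used in multiple sclerosis, or together with 20 µM DMF and 50 µM of the antioxidant glutathione (DMF + GSH). Each group had 3 RNA-Seq libraries, numbered 1 to 3, with 7671772 reads (Ctrl replicate 3) to 14511926 reads. Replicate 1 of every group formed preparation batch 1 and replicates 2 and 3 formed batch 2. The labels do not say whether the replicates were separate animals, so that the spread may in part be technical. As the cells were stimulated through CD28 itself and measured after 2 days, the values describe early activation in culture and not a chronic response.

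The cells carried the transcripts of CD8+ T cells. The summed normalized count of 6 markers (Cd3e, Cd3d, Cd3g, Cd8a, Cd8b1 and Trac) ranged from 24976 to 30333 in Ctrl. It ranged from 24825 to 29943 under DMF and from 25032 to 32201 when GSH was added. Within this sum Cd8a (means 10146 in Ctrl and 12601 with DMF) and Cd8b1 were higher with DMF. Cd3g (3514 and 2412), Cd3d, Cd3e and Trac were lower. Of 3 CD4 T cell markers, Cd4 did not exceed a mean of 2.61 in any group and Cd40lg did not exceed 3.92. Zbtb7b had means of 58.3 in Ctrl, 71.1 with DMF and 57.2 with DMF + GSH. One library stood apart. In Ctrl replicate 3 the macrophage genes Csf1r, Lyz2 and Adgre1 reached 58.3, 119 and 45.5 normalized counts, against at most 5.83, 10.6 and 4.84 in any other library. The sum over 8 markers of macrophages, monocytes and dendritic cells lay at 155 to 374 in Ctrl. It lay at 75.1 to 91.0 under DMF and at 126 to 167 when GSH was added. Outside Ctrl replicate 3, most of the lower sum under DMF came from Xcr1, a chemokine receptor gene best known from dendritic cells, with 69.6 and 69.7 in Ctrl replicates 1 and 2 and 13.8 to 16.5 under DMF. Because such cells can also transcribe Havcr2, the DMF fold changes of the members without Ctrl replicate 3 are also given.

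TIM-3, PD-1, CTLA-4, LAG-3, TIGIT, BTLA and CD160 dampen T cell activation when they meet their ligands, and CD5 lowers the strength of T cell receptor signaling. CD28 and ICOS are costimulatory: CD28 shares the ligands CD80 and CD86 with CTLA-4, which binds them more tightly. Most of these receptors are induced by antigen receptor stimulation, so that their presence marks activation as well as restraint, and TIM-3 is best known from type 1 effector T cells and from chronically stimulated T cells.

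For DMF versus Ctrl, 3 members passed the threshold, which asked for an adjusted p below 0.01 together with a log2 fold change of 0.75 or more in either direction. Havcr2 and Tigit were higher and Ctla4 was lower. As the members were chosen with these values known, the calls describe them and support nothing further. Their promoters are shown here so that the sequence in front of each start can be read beside the values. They comprise the 250 bases before the RefSeq start (GRCm38.p6), 5′ to 3′ on the strand of the gene, with matches to 6 short motifs in capitals. The promoter table used here, drawn from RefSeq and not complete, held entries for 7 of the 10 members, and promoters of Lag3, Cd28 and Icos were not analysed here. The Havcr2 window lies at chr11:46454681-46454930 (plus strand), the Tigit window at chr16:43664185-43664434 (minus strand) and the Ctla4 window at chr1:60908775-60909024 (plus strand), inside the longer Ctla4 gene model of GENCODE.
Havcr2: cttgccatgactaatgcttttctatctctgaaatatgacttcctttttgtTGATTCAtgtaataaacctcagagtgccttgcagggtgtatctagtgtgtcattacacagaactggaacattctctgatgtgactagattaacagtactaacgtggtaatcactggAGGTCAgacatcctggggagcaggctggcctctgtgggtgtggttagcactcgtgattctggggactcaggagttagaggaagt
Tigit: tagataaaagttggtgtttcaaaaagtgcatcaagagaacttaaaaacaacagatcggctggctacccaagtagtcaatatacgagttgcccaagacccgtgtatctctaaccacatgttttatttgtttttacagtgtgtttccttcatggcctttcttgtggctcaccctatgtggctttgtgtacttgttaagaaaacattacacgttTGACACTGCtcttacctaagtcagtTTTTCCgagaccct
Ctla4: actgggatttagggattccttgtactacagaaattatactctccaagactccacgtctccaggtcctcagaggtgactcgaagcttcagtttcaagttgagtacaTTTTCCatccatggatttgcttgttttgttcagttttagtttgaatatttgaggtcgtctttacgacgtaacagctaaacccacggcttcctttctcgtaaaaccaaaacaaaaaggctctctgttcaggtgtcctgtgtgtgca

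The motifs were searched on both strands of the 250 bases before each of 32841 RefSeq starts. In the Havcr2 promoter the capitals mark an AP-1 motif (TGANTCA, positions -200 to -194) and a ROR element (AGGTCA, -84 to -79), counted from the start. The AP-1 letters occurred in 6.75% of all promoters and the ROR element in 14.0%, among them that of Pdcd1. The Tigit promoter held an antioxidant response element (TGACNNNGC, -39 to -31), present in 10.2% of promoters and also in that of Btla, and an NFAT motif (GGAAAA, -14 to -9 on the other strand). The NFAT letters were in 20.4% of promoters and also stood in the Ctla4 window, at -145 to -140 on the other strand. A T-box motif (TCACACC, 3.33% of promoters) and a STAT motif (TTCNNNGAA, 7.02%) were found among the members only in 1 of the 2 Cd160 promoters. AP-1 and antioxidant response elements can share bases, but no match overlapped another in these windows. The matches describe letters and were not tested for binding.

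Havcr2 was higher with DMF, against a few reads per library in Ctrl. The gene (ENSMUSG00000020399, chr11:46454935-46481255) had normalized counts of 2.1, 0 and 5.7 in Ctrl replicates 1, 2 and 3, which rest on 2, 0 and 4 reads. With DMF the counts were 69.8, 23.1 and 39.7, and with DMF + GSH they were 6.6, 10.4 and 4.9. Every DMF library was thus above every library of both other groups, while Ctrl and DMF + GSH overlapped. The means were 2.59 ± 2.88 in Ctrl, 44.2 ± 23.7 with DMF and 7.29 ± 2.83 with DMF + GSH (SD, n = 3). On log2(normalized count + 1) the difference with DMF was 3.91 (SE 0.662), and within the replicate numbers it was 4.52, 4.59 and 2.60. Because the Ctrl counts are so low, this value depends on the pseudocount and was 2.85 with a pseudocount of 4. As a ratio of summed reads, corrected for depth, DMF exceeded Ctrl 19.5-fold, with an exact 95% interval of 8.71 to 54.0 that covers counting error only. Of the 6 reads of the Ctrl group, 4 came from replicate 3, the library with the macrophage transcripts, and without that library the log2 fold change was 4.69.

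Tigit (ENSMUSG00000071552, chr16:43648867-43664146), whose product binds the poliovirus receptor PVR, had a moderate level without DMF. Its normalized counts were 306.6, 411.5 and 344.1 in Ctrl (354 ± 53.2), 817.8, 757.6 and 748.1 in DMF (775 ± 37.8) and 369.7, 470.0 and 381.2 in DMF + GSH (407 ± 54.9). The DMF libraries did not overlap with either other group. The log2 fold change with DMF was 1.14 (SE 0.119), with 1.41, 0.88 and 1.12 in the replicate numbers. Tigit is also highly expressed in regulatory T cells, and their transcription factor Foxp3 had a mean normalized count of 756 in Ctrl, 1938 with DMF and 659 with DMF + GSH (log2 fold change with DMF 1.29, adjusted p = 0.0221 by limma and 1.06e-07 with the replicate number as a block, where it passed), in cultures where Cd4 was near 0. Foxp3 and Ikzf4, the 2 regulatory T cell markers, summed to 1045 to 1440 in Ctrl, 1560 to 3375 with DMF and 879 to 1455 with DMF + GSH. The part of cells expressing Foxp3 in the Tigit values was not tested, and in bulk RNA fewer cells of a type cannot be told apart from less RNA per cell.

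Ctla4 (ENSMUSG00000026011, chr1:60887000-60915832) moved the opposite way. It had the highest mean of the members in Ctrl and DMF + GSH, but not in DMF, where Cd28 and Cd5 were higher, with 7680.3, 6485.9 and 5547.2 in Ctrl (6571 ± 1069), 3574.9, 3936.1 and 3743.6 in DMF (3752 ± 181) and 6847.7, 5438.3 and 5980.8 in DMF + GSH (6089 ± 711). All DMF libraries lay below all others. The difference with DMF was -0.80 on the log2 scale (SE 0.104), or -1.10, -0.72 and -0.57 by replicate number. A ribosomal pseudogene, Rpl18-ps1, lies within Ctla4 on the same strand, but its mean of 19.7 is small beside these counts.

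**Figure D1:**
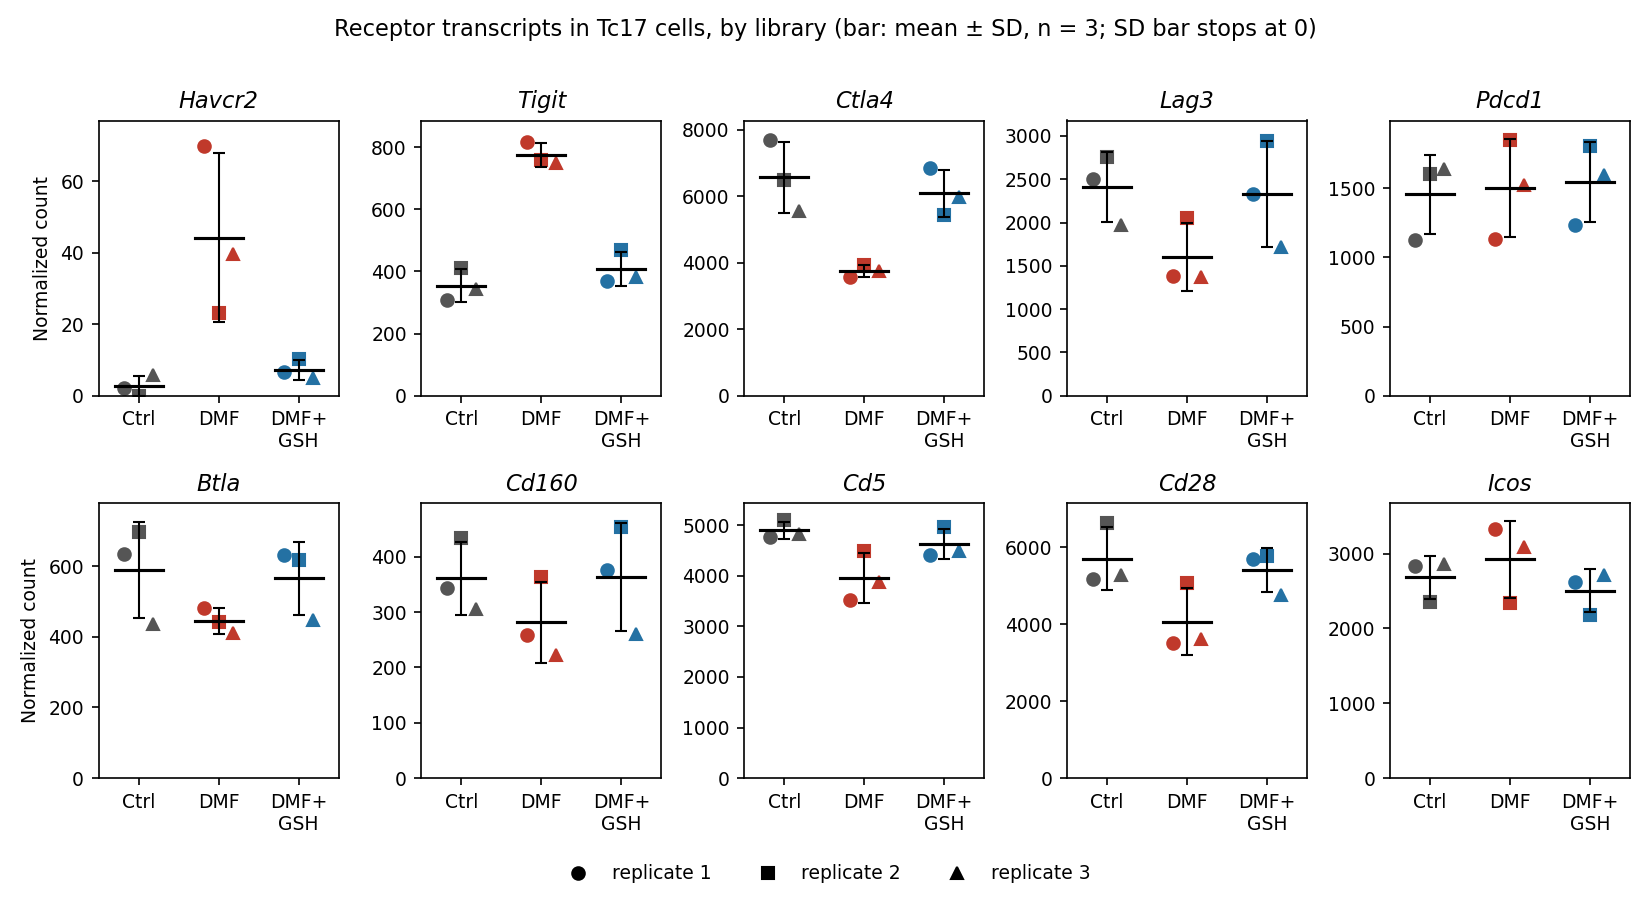
Normalized counts of the 10 receptor genes (vertical axes from 0, a separate scale for each gene) in the 3 libraries of Ctrl, DMF and DMF + GSH. Symbols give the replicate number, the long bar is the mean and the error bar the SD (n = 3). The DMF libraries lie above Ctrl for Havcr2 and Tigit and below it for Ctla4, Cd28 and Cd5, whereas Pdcd1 and Icos overlap among the groups.

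The remaining inhibitory receptors did not pass the threshold. Lag3, which binds MHC class II and fibrinogen-like protein 1, had 2503.6, 2757.1 and 1969.5 normalized counts in Ctrl, 1387.0, 2055.4 and 1368.5 in DMF and 2325.8, 2940.8 and 1720.0 in DMF + GSH. Ctrl and DMF overlapped, since DMF replicate 2 lay above Ctrl replicate 3, the library with the macrophage transcripts, while the other Ctrl libraries lay above all DMF libraries. Within the replicate numbers DMF was lower each time (-0.85, -0.42 and -0.52), and the log2 fold change was -0.60 with an SE of 0.215, which became 0.0736 when the replicate number was fitted as a block. Btla and Cd160, which both bind the herpesvirus entry mediator HVEM, had log2 fold changes of -0.38 (SE 0.167) and -0.37 (SE 0.233) and were lower with DMF in all 3 replicate numbers, with overlapping groups. Btla ranged from 435 to 697 in Ctrl and from 411 to 482 with DMF, and Cd160 from 306 to 434 and from 223 to 364. Cd5, the scavenger-type receptor, had a log2 fold change of -0.31 (SE 0.080), with 4767 to 5096 in Ctrl and 3517 to 4494 with DMF, which did not overlap. Pdcd1 showed no common direction. It had 1124.5, 1606.1 and 1636.7 in Ctrl and 1136.2, 1848.2 and 1523.4 with DMF, a log2 fold change of 0.04 (SE 0.085) with 0.01, 0.20 and -0.10 in the replicate numbers.

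The costimulatory receptors did not pass either. Cd28 had 5185.0, 6637.3 and 5288.4 normalized counts in Ctrl, 3509.3, 5074.7 and 3614.8 in DMF and 5696.9, 5776.8 and 4749.8 in DMF + GSH. The Ctrl and DMF libraries did not overlap, and the log2 fold change was -0.50 (SE 0.146), or -0.56, -0.39 and -0.55 by replicate number. Icos had 2839.3, 2352.1 and 2861.1 in Ctrl, 3333.6, 2345.6 and 3088.4 in DMF and 2621.8, 2180.5 and 2715.7 in DMF + GSH. Its log2 fold change with DMF was 0.11 (SE 0.124), and replicate 2 of Ctrl and DMF were nearly equal.

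Across the family, 2 of 10 members were past the threshold upward and 1 downward, where 1.22% of all genes tested rose and 1.67% fell (2.89% in either direction). Since the members were picked with these values in view, nothing is read from this difference. In 2 members every DMF library lay above every Ctrl library (21.6% of all genes) and in 3 below (19.8%). The replicate numbers gave 1 sign in all 3 pairs for 2 members that were higher (34.3% of genes) and 6 that were lower (32%). The median log2 fold change of the 10 members was -0.34, against 0.01 over all genes tested. Without Ctrl replicate 3 the same 3 members passed, with log2 fold changes of 4.69 for Havcr2, 1.10 for Tigit and -0.89 for Ctla4. Lag3, Btla and Cd160 then had -0.76, -0.56 and -0.50, Cd28 and Cd5 had -0.58 and -0.35, and Icos and Pdcd1 had 0.20 and 0.05. No member passed without Ctrl replicate 1, DMF replicate 1 or DMF replicate 3, and only Tigit did without Ctrl replicate 2 or DMF + GSH replicate 1. The same fits called few genes of any kind, with 2, 5, 12, 26 and 54 of the 11599 in this order. With the replicate number as a block, the count remained 3 (6.8% of all genes), and it was 2 to 3 with any library left out.

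When glutathione was added to DMF, Tigit was lower. In DMF + GSH versus DMF, a comparison that shares the DMF libraries with the preceding one, Tigit was the 1 member past the threshold (0.543% of all genes in either direction, 0.276% lower). Its log2 fold change was -0.93 (SE 0.119). The difference of Havcr2 was -2.37 (SE 0.662), with -3.22, -1.08 and -2.79 in the replicate numbers, and its summed reads, corrected for depth, were 0.179 of those with DMF (exact 95% interval 0.112 to 0.275, counting error only). Havcr2 passed the threshold only with the replicate block, which called 2 members and 5.69% of all genes. Ctla4 was higher with DMF + GSH than with DMF by 0.69, short of the fold limit. Lag3 (0.53), Cd28 (0.43), Cd160 (0.36), Btla (0.33) and Cd5 (0.23) were also above DMF in all 3 replicate numbers, and Icos was below (-0.21). Thus 6 members were higher and 3 lower in every pair (31.9% and 33.4% of all genes), and the groups were apart for Ctla4 upward (17.8%) and for Havcr2 and Tigit downward (20.5%). The count of members past the threshold was 0 without Ctrl replicate 1, DMF replicate 1, DMF replicate 3 or DMF + GSH replicate 1 or 2, and 2 (Ctla4 and Tigit) without DMF replicate 2. Over all genes these fits called 7, 4, 0, 0, 0 and 481 in this order.

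Between DMF + GSH and Ctrl no member and no gene passed the threshold in limma (0% of genes), with 222 genes at an unadjusted p under 0.05. edgeR on the recovered reads also called 0 genes, with 213 at that level, and the replicate block called 1 gene (0.00862%), which was no member, with 599 genes at that level. The 2 groups overlapped for all 10 members, where 4.47% of genes did not overlap. Havcr2 had the largest difference, 1.54 (SE 0.662), but its pairs were 1.30, 3.51 and -0.19, and the read ratio was 3.48 with an exact interval of 1.39 to 10.4 (counting error only). Without Ctrl replicate 3 it was 2.32 on the log2 scale. Tigit was 0.20 above Ctrl (SE 0.119) and higher in 3 of 3 pairs (11.7% of all genes). Cd5 and Icos were lower in 3 of 3 pairs (14.2%). The 8 members other than Havcr2 and Tigit lay between -0.10 and 0.09, with SEs of 0.080 to 0.233.

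**Figure D2:**
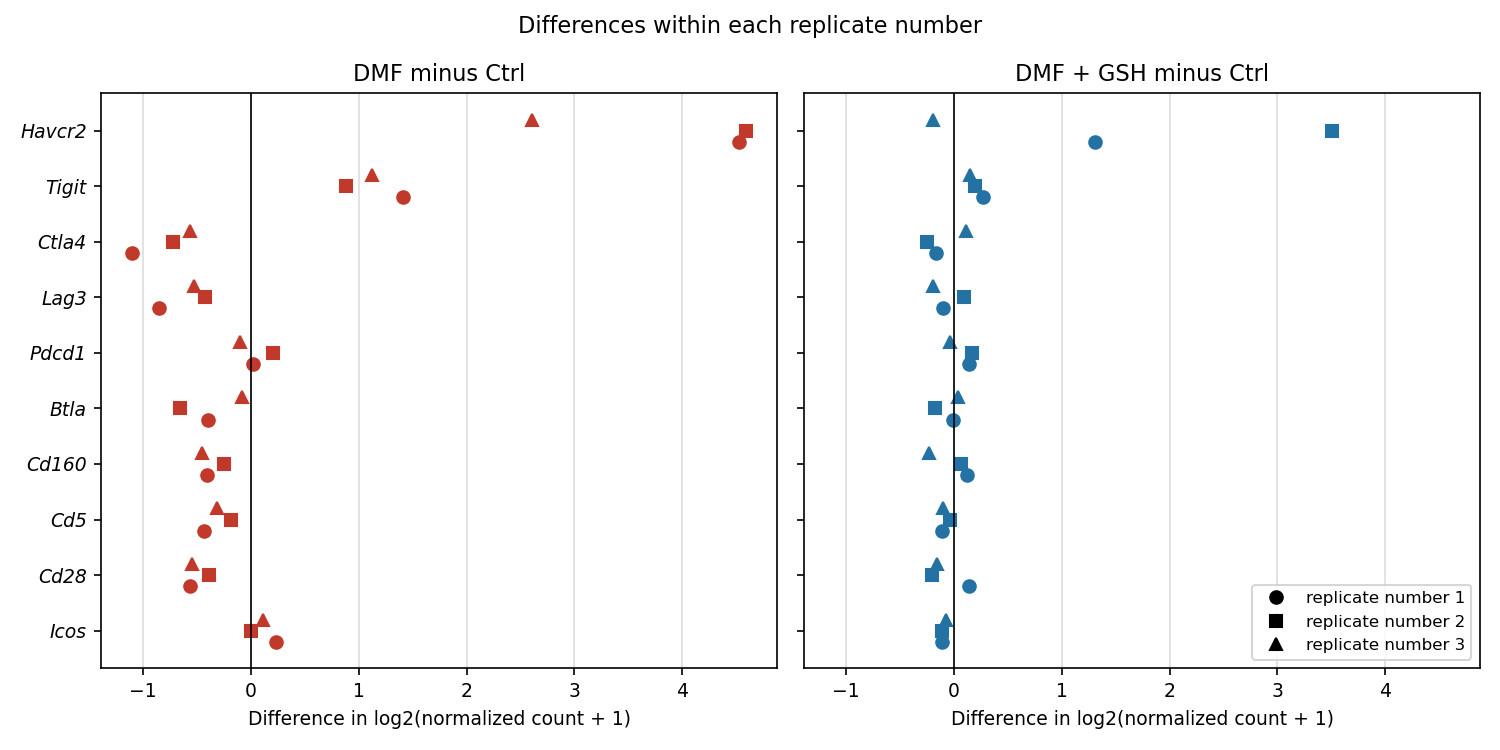
Difference in log2(normalized count + 1) within each replicate number for the 10 receptor genes, for DMF minus Ctrl (left) and DMF + GSH minus Ctrl (right). Both panels use the same Ctrl libraries. For Havcr2, the DMF differences lie between 2.60 and 4.59, and the DMF + GSH differences spread from -0.19 to 3.51, while those of the other receptors lie close to 0 in the right panel.

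Levels between genes were compared per kb of annotated exon, as normalized counts per kb. In Ctrl the order was Ctla4 (2820), Lag3 (1143), Cd5 (993), Cd28 (932), Icos (783), Pdcd1 (754), Tigit (385), Btla (173), Cd160 (137) and Havcr2 (0.951). The ranges of Lag3 and Cd5, of Cd5 and Cd28, of Icos and Pdcd1 and of Btla and Cd160 overlapped, and those of the other neighbours in the order did not. With DMF, Ctla4 remained first at 1610 per kb. Tigit moved from rank 7 to rank 3 at 843 per kb, within the ranges of its neighbours Icos (852) and Cd5 (804), and Lag3 (760) and Cd28 (664) took ranks 6 and 7. Havcr2 stayed last in every group. Even with DMF it had 16.2 normalized counts per kb, far below the 107 of Cd160. With DMF + GSH, Tigit was again at rank 7 (443 per kb) and Lag3 at rank 2 (1104).

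The profiles over the 9 libraries were compared by the mean absolute difference between z-scores, where 0 means the same profile. Lag3 and Cd160 were the closest pair (0.243), followed by Lag3 with Cd28 (0.317). Havcr2 was closest to Tigit (0.426), and Tigit was farthest from Ctla4 (1.67). Among all genes tested other than the members, the 5 most like Havcr2 were Chtop (0.195), 1700021A07Rik (0.198), Fst (0.224), Cpsf3 (0.232) and Isyna1 (0.234). Fst, encoding the activin inhibitor follistatin, had mean normalized counts of 7.69 in Ctrl, 37.3 with DMF and 12.1 with DMF + GSH (log2 fold change 2.16 with DMF). It was picked for this profile, so that no test is given. In Chtop the differences were small, with means of 2161, 2372 and 2224, so that a like profile does not mean a like fold change.

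The neighbours of members were examined at 2 loci. On chromosome 1, the start of Cd28 lies at -170.2 kb and that of Icos at 90.9 kb from that of Ctla4. There the lincRNA Gm11579, between Cd28 and Ctla4, had a log2 fold change of -1.25 with DMF (34.4 to 13.9 normalized counts, adjusted p = 0.0187) and was called by the replicate block (adjusted p = 0.00085). The values at this locus were thus -0.50 for Cd28, -0.80 for Ctla4 and 0.11 for Icos. On chromosome 11, within 200 kb of the Havcr2 start, Fam71b (start at -58.4 kb) rose with DMF from 112 ± 9.56 to 294 ± 83.8 and had 95.4 ± 12.9 with DMF + GSH (n = 3 each). Its log2 fold change was 1.35 (adjusted p = 0.0042) and that of DMF + GSH versus DMF was -1.58 (adjusted p = 0.0055). The first call was lost without Ctrl replicate 1 or 2, DMF replicate 1 or 3 or DMF + GSH replicate 1 (adjusted p up to 0.0380), and the second without Ctrl replicate 1, DMF replicate 1 or 3 or DMF + GSH replicate 1 or 2 (adjusted p up to 0.0601). With the block, both calls were kept in all 9 fits that left out a library. Med7 had a log2 fold change of 0.38 (adjusted p = 0.127) and Cyfip2 had -0.30 (adjusted p = 0.0085, below the fold limit). Havcr1 and Timd4, the other TIM family genes, were at or near 0 in all groups, with a highest group mean of 0.691, and Timd2 did not exceed a group mean of 3.83.

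**Figure D3:**
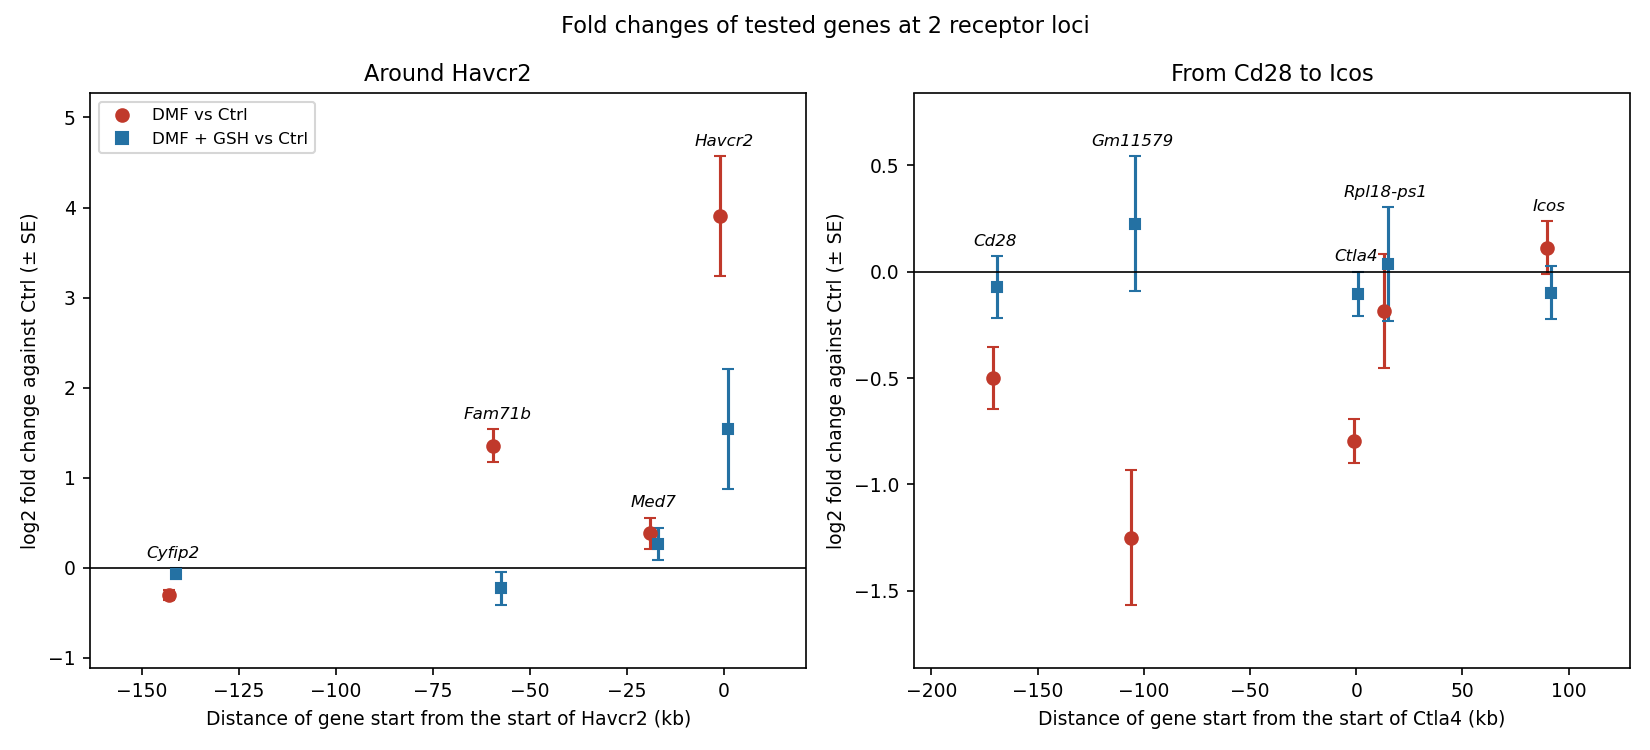
Log2 fold change against Ctrl (± SE) of tested genes named here at the Havcr2 locus (left) and from Cd28 to Icos (right), by the distance of the gene start in kb. Circles are DMF and squares DMF + GSH. Havcr2 and Fam71b stand above 1 with DMF at the left locus, and at the right locus Cd28, Gm11579 and Ctla4 lie below 0 and Icos at 0.11.

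Genes around the receptors were grouped into lists of ligands, other receptors, partners of the receptor tails and transcription factors. The share of all genes past the threshold with DMF was 2.89% in each case, and 41.5% of all genes were at an unadjusted p under 0.05 (21.6% higher and 19.9% lower), against which the list counts at that level are to be read. Of 14 ligands, 11 were tested, of which 1 rose and 0 fell in limma as in edgeR (median log2 fold change 0.32), with 4 higher and 1 lower at an unadjusted p under 0.05. The riser was Pdcd1lg2, which encodes the PD-1 ligand PD-L2. It had 45.7, 70.6 and 59.7 normalized counts in Ctrl, 124, 118 and 125 in DMF and 62.7, 86.1 and 76.8 in DMF + GSH (log2 fold change 1.07, adjusted p = 0.0053 for DMF versus Ctrl). Lgals3, encoding galectin-3 and the most abundant ligand, had a log2 fold change of 0.47 (adjusted p = 0.0065), below the fold limit. The replicate block added Cd80, the shared ligand of CD28 and CTLA-4 (30.0, 51.6 and 25.2 as group means), a call kept in only 2 of the 9 block fits that left out a library.

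Among 16 tested of 20 other receptors, 0 rose and 1 fell (median -0.34), with 1 higher and 7 lower at an unadjusted p under 0.05 and 0 and 2 called by edgeR. This was Cd101, an inhibitory immunoglobulin superfamily receptor, with 1004, 1039 and 944 in Ctrl, 451, 592 and 447 in DMF and 784, 921 and 762 in DMF + GSH (log2 fold change -1.01, adjusted p = 0.0025). Cd6, a relative of Cd5 and the most abundant of the list, had -0.06. Slamf6 (-0.98) and Pecam1 (-1.47) were past the threshold with the block, and Vsir, which encodes VISTA, had -0.749 (adjusted p = 0.0088), just short of the fold limit. Vsir was called by edgeR, along with Cd101, and with TMM rescaling. Of 17 kinases, phosphatases and adaptors acting at the receptor tails, 0 passed in limma and 0 in edgeR (median 0.01), with 1 higher and 5 lower at an unadjusted p under 0.05. Lck, the kinase that starts T cell receptor signaling, was the most abundant and had -0.25 (adjusted p = 0.0341), and the block called Cblb (-0.78), an ubiquitin ligase that limits CD28-dependent activation, also in 7 of its 9 fits with a library left out.

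Of 19 transcription factors, 3 rose and 1 fell in limma as in edgeR (median -0.10), with 6 higher and 7 lower at an unadjusted p under 0.05. The risers were Eomes (28.2 to 130 normalized counts, log2 fold change 2.35, adjusted p = 0.0028) and Tbx21, encoding T-bet (270 to 514, 0.98, adjusted p = 0.0056), both T-box factors of cytotoxic T cells, and Nr4a3 (884 to 1784, 1.01, adjusted p = 0.0043), an orphan receptor induced by antigen receptor signals. Id2 fell (1202 to 623, -0.94, adjusted p = 0.0028). With DMF + GSH the means of these 4 genes were 32.5, 283, 957 and 1159. In DMF + GSH versus DMF, which shares the DMF libraries, 1 factor of the list rose (Id2) and 1 fell (Eomes), where 0.543% of all genes passed. With the block 3 were past the threshold upward (Id2, Tcf7 and Bcl6) and 4 downward (Eomes, Nr4a3, Tbx21 and Prdm1), where 5.69% of all genes passed. Tcf7, the most abundant factor of the list, had -1.14 (adjusted p = 0.0163) and was past the threshold with the block, as were Bcl6 (-1.60) and Prdm1 (2.41, 4.59 to 29.1 counts). Like Havcr2, Prdm1 reached the filter level only through its counts with DMF (mean 7.37 with DMF + GSH). In all, 6 list genes passed, 10 without a minimum (451 of all genes) and 13 with the block (6.8% of all genes). Without the batch term 5 passed (267 of all genes), and Tbx21 was not among them. The number was 11 without Ctrl replicate 3 and 12 without DMF replicate 2, fits that called 681 and 667 of all genes. It was 0 without Ctrl replicate 1 or DMF replicate 3, 1 (Eomes) without DMF replicate 1, 2 (Maf and Nr4a3) without Ctrl replicate 2 and 4 without DMF + GSH replicate 1, the fits with 2 to 54 genes in all. With the block and any library left out it was 11 to 13, of 562 to 862 genes.

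**Figure D4:**
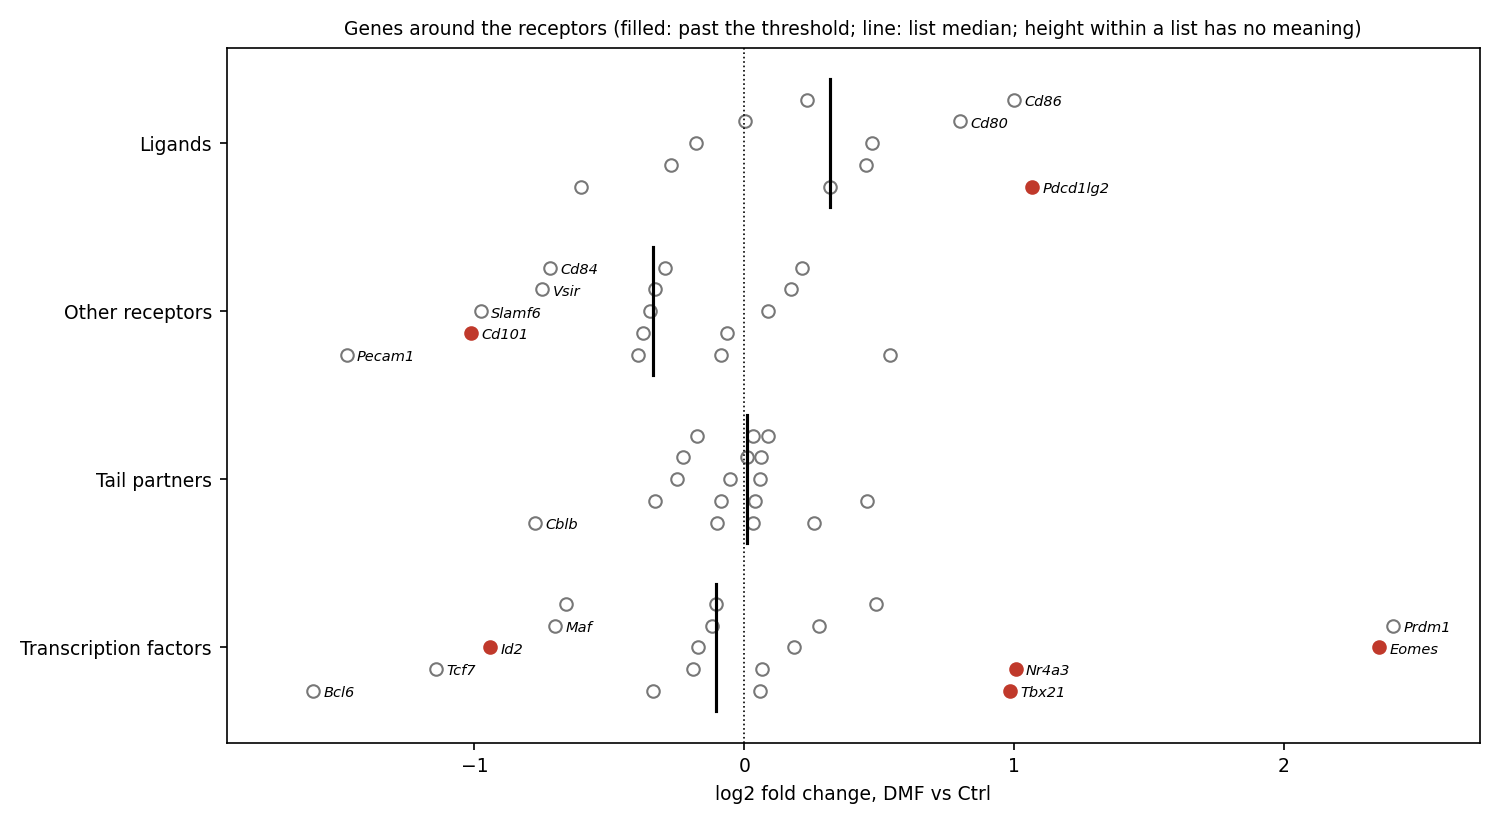
Log2 fold change of DMF versus Ctrl for the tested genes of 4 lists around the receptors (ligands, other receptors, tail partners, transcription factors). Each circle is a gene, filled when past the threshold, and the vertical line is the list median. Pdcd1lg2, Eomes, Tbx21 and Nr4a3 are filled to the right of 0 and Cd101 and Id2 to the left.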

How the data were processed

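RNA-Seq of murine Tc17 cells comprised 9 libraries. The authors aligned single reads of 50 bp to Ensembl GRCm38 with STAR 2.4.0b and counted them per gene with featureCounts. In the sources used here, the use of strand is not given. The deposited values are a signal of read counts divided by a factor per library (normalized counts). Columns with the authors' own comparison of Ctrl and DMF (log2 fold change, test statistic, p-value and adjusted p) were not used. Values above 0 were whole multiples of the worth of 1 read in each library (100%, tolerance 0.01 reads), and 1 read equalled 0.742 to 1.42 normalized counts.

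Expression was tested with limma-trend (limma 3.58.1, R 4.3.3) on log2(normalized count + 1), over 11599 genes (mean normalized count 10 or more), with all 9 libraries, group and preparation batch in 1 fit and Benjamini-Hochberg adjustment over all genes tested. The design had foreseen a count test only for raw counts, and edgeR 4.0.16 on recovered reads was an alternative. Fold changes of low genes are understated on this scale. Intervals and read ratios cover counting error only. The replicate numbers were taken as pairs, since deviations from the group means correlated at 0.447 to 0.578 in all 9 same-number pairs across groups. The 18 others lay at -0.471 to -0.0621, but deviations within a group sum to 0, so that positive same-number values bring negative ones. The main limma fit and its SEs use the batch and not these pairs. With the replicate number as a block, the SE of every member was smaller, as for Cd160 (0.0929), Cd28 (0.0702) and Icos (0.0566). In simulated data, the test called 97% of 200 genes changed by 1.5 (log2) between Ctrl and DMF and 1 of the 11350 other genes. The simulated libraries had no batch or replicate effect. These shares therefore show only that the fit runs as meant, and not how it does on libraries that share such effects. The members and gene lists were chosen with earlier results of these data known. Genes named are the members, list genes past the threshold or most abundant, the 5 genes most like Havcr2, and neighbours within 200 kb. Results for 1 gene are not reported here. Other genes named because the replicate block called them, Vsir, the other TIM family genes and cell type markers that stood out were chosen after their values were seen. Positions are from GENCODE vM21. Python 3.11.15, pandas 2.3.3, NumPy 2.4.6, SciPy 1.17.1 and Matplotlib 3.10.9 were used.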

Additional observations from a re-analysis of the deposited data

How the results depend on the processing

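All 10 members kept the direction of their DMF fold change under both pseudocounts, without a minimum, with TMM rescaling, in edgeR, with the replicate block and without the batch term, and with libraries left out only Pdcd1, near 0, changed sign. The replicate block moved the number of genes from 335 to 789 (DMF versus Ctrl), from 63 to 660 (DMF + GSH versus DMF) and from 0 to 1 (DMF + GSH versus Ctrl), and the number of members from 1 to 2 in the second comparison. It changed no other call among the members. In DMF + GSH versus DMF, 273 genes passed without a minimum and 28 without the batch term. With 1 library left out, the ranges were 2 to 681 genes and 0 to 3 members for DMF versus Ctrl, and 0 to 481 genes and 0 to 2 members for DMF + GSH versus DMF. The cause was not tested.

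The replicate block with 1 library left out was added after seeing the data. Leaving out Ctrl replicates 1, 2 and 3, DMF replicates 1, 2 and 3, and DMF + GSH replicates 1, 2 and 3 in this order gave 634, 726, 815, 562, 830, 862, 794, 782 and 772 genes for DMF versus Ctrl and 647, 633, 671, 403, 672, 727, 481, 633 and 639 for DMF + GSH versus DMF. The members in the latter were 1 to 3, with 2 when a Ctrl library was left out and 3 without DMF replicate 2, DMF replicate 3 or DMF + GSH replicate 2. For DMF + GSH versus Ctrl, the number of genes was 2 with DMF replicate 1 or 2 left out, 1 with DMF replicate 3 left out and 5 with DMF + GSH replicate 1 left out. Depth limits Havcr2 most, which rests on 6 reads in Ctrl and 25 with DMF + GSH.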

Other observations

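Of the 4 NK cell markers, Klre1 alone passed the filter on low values, with a mean of 15.4 over all libraries that was raised by its DMF counts. This receptor gene had a mean normalized count of 8.22 in Ctrl, 26.6 with DMF and 11.3 with DMF + GSH (log2 fold change 1.57 with DMF, adjusted p = 0.0136 by limma). Fitted with the replicate number as a block it was past the threshold (adjusted p = 0.00092). The other markers were too low to be tested. Ncr1 had group means of 0.693 in Ctrl and 0 with DMF, Klrb1c had 1.95 and 0, and Tyrobp had 3.32 and 0.645. The Ctrl mean of Tyrobp came from replicate 3 alone (9.95), the library with the macrophage transcripts. Whether NK cells contributed to Klre1 was not tested. Outside Ctrl replicate 3, the values of Xcr1 carry most of the lower sum of macrophage, monocyte and dendritic cell markers under DMF. Over all libraries, Xcr1 had means of 64.9 in Ctrl, 14.9 with DMF and 51.0 with DMF + GSH (log2 fold change with DMF -2.05, adjusted p = 0.0030).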
